A study of Mus musculus with 6 samples.

Results

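Lysosomes are acidic organelles in which soluble hydrolases take apart proteins, glycans and lipids that arrive by phagocytosis, endocytosis and autophagy. Small activator proteins lift lipids out of membranes for the enzymes, and membrane proteins line the organelle and carry the products out. Loss of single enzymes or carriers causes the lysosomal storage diseases, many of which damage the brain, and in microglia, the resident macrophages of the brain, lysosomes digest debris and amyloid. The genes described here are 31 lysosomal enzymes, activators and membrane proteins, found by their symbols in a table of 20129 genes. All 31 were in the table, and all 31 passed the expression filter of at least 1 CPM (a gene's reads scaled to a library total of 1000000) in at least 3 of 6 libraries, as did 11900 genes in all.

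Microglia were profiled by RNA sequencing from C57BL6/J mice aged 5 months in 2 groups. Controls were 5xFAD mice, which carry mutant human amyloid precursor protein and presenilin transgenes under the neuronal Thy1 promoter and deposit amyloid (3 libraries, replicates 4, 5 and 6). The other group was Il3-/-5xFAD, which carries the same transgenes and lacks the gene for interleukin-3, a growth factor of blood cells (3 libraries, replicates 1, 2 and 3). Both groups therefore carry the amyloid model, and no group without it was compared. Every library pooled 2 male and 2 female mice, and the cells were live CD45+ CD11b+ cells sorted from brain, a gate that also admits other myeloid cells.

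The libraries held 27970850 to 37605490 reads, with at least 1 read in 14435 to 17245 genes. Il3 had 29 to 61 reads in the 5xFAD libraries and 0 in each Il3-/-5xFAD library. Of 8 microglial markers, led by Csf1r and Cx3cr1, none was at 0 in any library, and their sum was 24283 to 25705 CPM in the 5xFAD pools and 25725 to 28239 CPM in Il3-/-5xFAD. Some markers of other cells differed between the groups. The 10 neutrophil markers, with Csf3r and S100a9 the most abundant, summed to 1858 to 3761 CPM in the 5xFAD pools and 902 to 1427 CPM in Il3-/-5xFAD, and 5 of them fell (limma, adjusted p under 0.05). The 7 measured monocyte markers, led by Ccr2 and F13a1, summed to 129 to 188 and 67.0 to 128 CPM, with 2 of 6 tested genes lower. The 8 T and NK cell markers, led by Lck and Cd3g, summed to 76.4 to 141 and 37.6 to 47.6 CPM, with 3 lower, and the 5 choroid plexus markers, led by Ttr and Enpp2, to 176 to 506 and 60.2 to 127 CPM, with 2 of 3 tested genes lower. No marker passed among border-associated macrophage genes (Mrc1, F13a1; 128 to 166 and 103 to 132 CPM), B cell genes (Ighm, Cd79b; 301 to 368 and 302 to 327 CPM), astrocyte genes (Slc1a3, Gfap; 141 to 170 and 130 to 150.0 CPM), oligodendrocyte genes (Mbp, Mag; 115 to 130 and 92.3 to 100 CPM), endothelial genes (Pecam1, Flt1; 57.0 to 74.0 and 53.1 to 55.7 CPM) or neuron genes (Snap25, Rbfox3; 2.22 to 4.40 and 2.41 to 3.43 CPM). Markers at 0 in at least 1 library included Cd79a, Aqp4, Mog, Syt1, Tubb3, Gad1, Ly6c1 and Kcnj13. In bulk libraries, fewer cells of a type and less RNA per cell cannot be told apart, and the part of these markers in the differences below was not tested. Il3-/-5xFAD replicate 3 had the fewest detected genes. It also had the lowest weight when limma estimated a weight for each library (0.412, against 0.818 to 1.54 for the others). It was the highest of its group for 23 of the 31 lysosomal genes. The 5xFAD libraries differed among themselves too: replicate 4 was the lowest of its group for 21 of the 31, and replicate 5 the highest for 17.

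No lysosomal gene passed the test, and most had a lower mean in Il3-/-5xFAD. Their summed level was 22946, 24308 and 24139 CPM in 5xFAD replicates 4, 5 and 6, which is 2.29%, 2.43% and 2.41% of all reads. In Il3-/-5xFAD replicates 1, 2 and 3 it was 20474, 20814 and 23734 CPM, or 2.05%, 2.08% and 2.37%. Replicates 1 and 2 of Il3-/-5xFAD lay below every 5xFAD library, while replicate 3 lay inside the 5xFAD range. The group means were 23798 ± 743 and 21674 ± 1792 CPM (SD, n = 3).

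Gene by gene, 26 of the 31 log2 differences (Il3-/-5xFAD minus 5xFAD, on the log2(CPM + 1) scale) were negative and 5 were positive. That is 83.9% negative, against 50.1% over all 11900 genes tested, and the median was -0.080, against -0.00059 over all genes. Differences ran from -0.41 (Npc2) to 0.23 (Sgsh). None of the 31 genes passed the limma test at an adjusted p under 0.05, a threshold that 0.882% of all genes tested passed (105 genes; 0.63% lower and 0.252% higher). With an unadjusted p under 0.05, 7 were lower (22.6%, against 9.83% of all genes) and 0 were higher (against 6.69%). In 5 genes every Il3-/-5xFAD library lay below every 5xFAD library (16.1%, against 11.5% of all genes), and in 0 genes above (against 9.65%). Those 5 were Lamp1, Npc2, Lipa, Fuca1 and Ppt1. On the recovered reads, edgeR's quasi-likelihood test also called 0 of the 31 (against 0.294% of all genes as lower), and DESeq2 called Npc2 alone (adjusted p = 0.0168; DESeq2 called 3.45% of genes as lower).

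**Figure D1:**
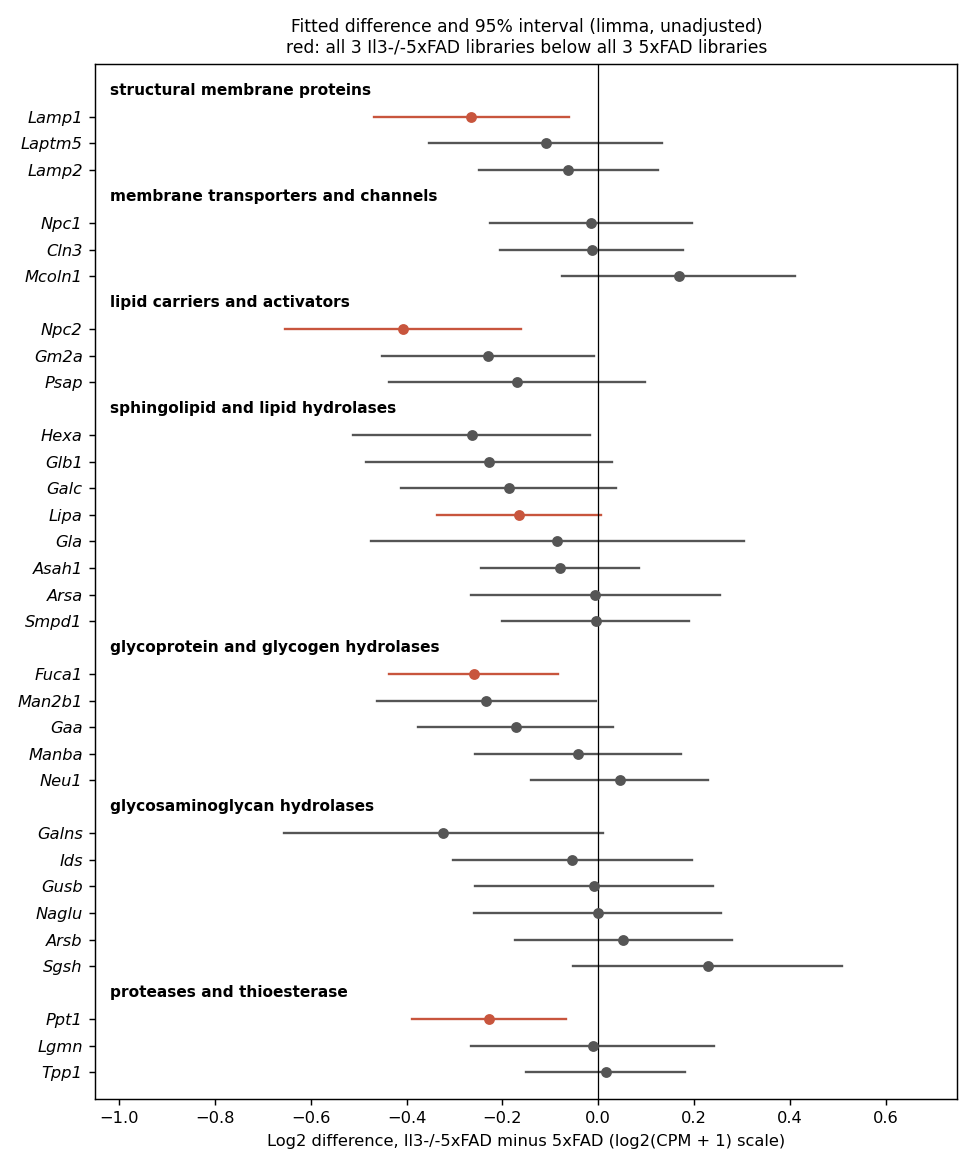
Fitted log2 difference (Il3-/-5xFAD minus 5xFAD, log2(CPM + 1) scale, horizontal axis) of each of the 31 genes, grouped by role; points are limma estimates and lines their unadjusted 95% intervals. Points lie left of 0 for 26 genes, and the 5 genes drawn in red had all 3 Il3-/-5xFAD libraries below all 3 5xFAD libraries.

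The result without Il3-/-5xFAD replicate 3 differed from that with all libraries. Leaving it out, limma called 3 of the 31 genes as lower (9.68%, against 3.12% of all genes): Npc2 (-0.50, adjusted p = 0.0376), Fuca1 (-0.31, adjusted p = 0.0448) and Hexa (-0.38, adjusted p = 0.0462). The median over the 31 genes was then -0.11. With any one of the other 5 libraries left out, limma called 0 of the 31. With all libraries and an estimated weight for each, it called Npc2 (-0.46, adjusted p = 0.0178), Fuca1 (-0.28, adjusted p = 0.0351) and Lamp1 (-0.30, adjusted p = 0.0437), 9.68% against 5.08% of all genes as lower.

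**Figure D2:**
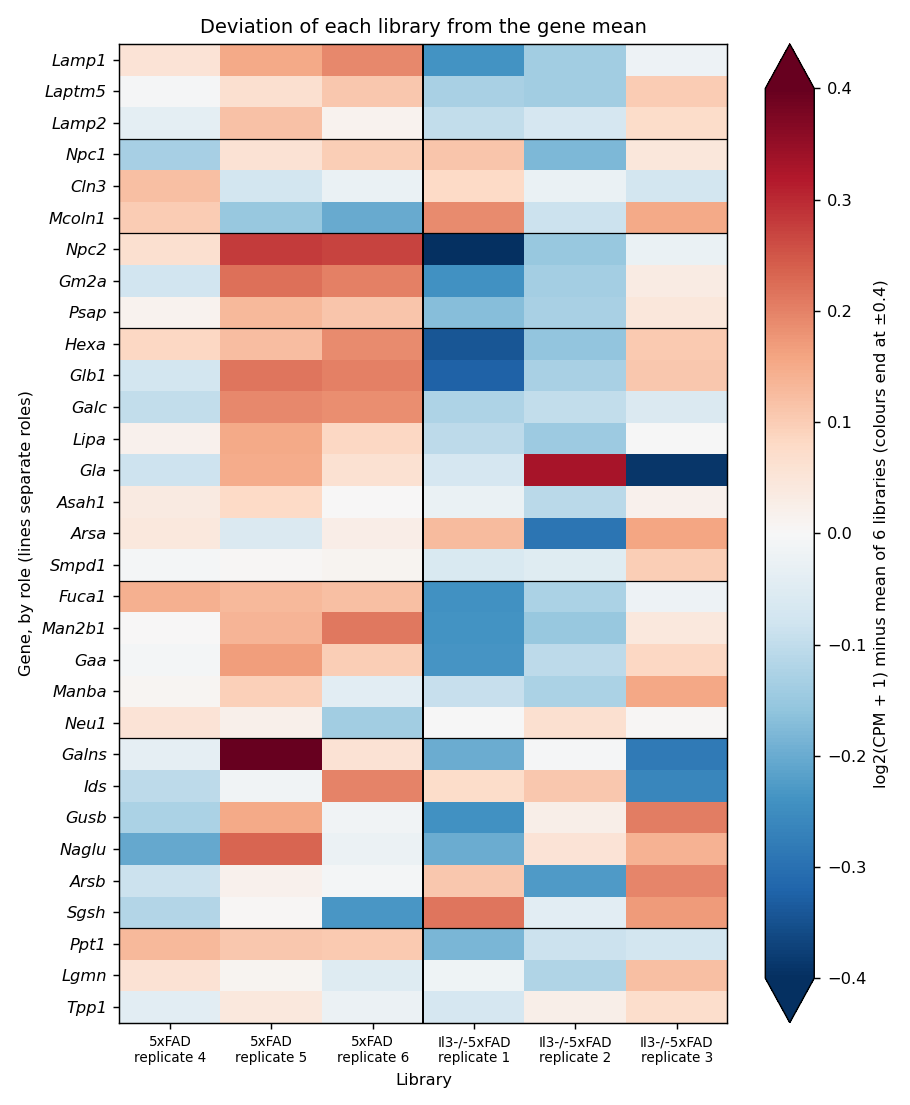
Colour gives log2(CPM + 1) of each gene in each library minus the gene's mean over 6 libraries, with genes in rows by role and libraries in columns; colours end at ±0.4. Il3-/-5xFAD replicates 1 and 2 are mostly blue, while replicate 3, the highest of its group for 23 of 31 genes, is mostly red.

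Many lysosomal genes are known to share a short promoter palindrome, the CLEAR element, an extended E-box bound by the transcription factors TFEB, TFE3 and MITF. Its inner letters were searched in RefSeq promoter windows of 300 bases (250 before the start site and 50 after, build GRCm38.p6), of which 28 of the 31 genes had at least 1; Asah1, Galns and Npc1 were not searched. Each motif is a palindrome, so both strands read alike. The core CACGTG was in the windows of 10 of 28 genes (35.7%), against 8.09% of the 27025 genes with a window. These were Arsa, Cln3, Gaa, Gla, Glb1, Lamp1, Lgmn, Mcoln1, Naglu and Sgsh. Extended by 1 base on each side, TCACGTGA was in 3 (Cln3, Gla, Mcoln1; 10.7% against 1.12%); each such match also counts as a core. The 4 genes with more than 1 match are shown, since repeated copies set them apart in this search; capitals mark the matches.
Lamp1 (chr8:13159080-13159171, + strand): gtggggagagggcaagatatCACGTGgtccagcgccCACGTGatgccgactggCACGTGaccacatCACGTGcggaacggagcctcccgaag
Mcoln1 (chr8:3500428-3500500, + strand): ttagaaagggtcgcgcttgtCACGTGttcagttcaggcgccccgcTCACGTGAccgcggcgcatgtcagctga
Cln3 (chr7:126583331-126583405, - strand): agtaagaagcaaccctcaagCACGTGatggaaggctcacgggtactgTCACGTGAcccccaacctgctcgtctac
Gla (chrX:134601173-134601253, - strand): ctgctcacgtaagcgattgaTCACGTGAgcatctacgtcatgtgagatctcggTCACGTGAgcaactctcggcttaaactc

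Lamp1 held 4 copies of the core between 61 and 15 bases before its start site, and the other 3 genes held 2 each. Genes with the core had a median log2 difference of -0.013, with 8 of 10 negative and 1 of 10 without overlap between the groups (Lamp1). The 18 genes whose window did not hold these letters had a median of -0.14, with 15 negative and 4 without overlap (Npc2, Lipa, Fuca1 and Ppt1). Over all 11900 genes tested, 50.1% were negative and 11.5% were lower without overlap. These are counts of few genes, and the contrast by motif was not tested. A match is a description of the window only. Of the 3 factors, named here outside the rule for named genes, Tfeb was at 68.0 ± 4.76 CPM in the 5xFAD pools, against 67.3 ± 4.23 CPM in the Il3-/-5xFAD pools (SD, n = 3), Tfe3 at 182 ± 7.78 and 202 ± 25.5 CPM, and Mitf at 46.7 ± 3.73 and 50.4 ± 7.20 CPM, with limma adjusted p of 0.965, 0.494 and 0.718.

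Levels spanned more than 2 orders of magnitude. Psap, Lgmn and Laptm5 made up 55.6% of the summed CPM of the 31 genes. Genes were compared roughly, per kilobase of the longest annotated transcript, which need not be the one expressed. By this measure Lgmn (2121 ± 81.8 CPM per kb in 5xFAD) and Psap (2117 ± 89.6) led and did not differ beyond their spread. They were followed by Laptm5 (1241 ± 49.0), Hexa (760.2 ± 28.6) and Lamp1 (642 ± 31.5). At the other end stood Galns (10.7 ± 2.12), Gla (6.15 ± 0.515) and Sgsh (5.24 ± 0.453 CPM per kb in 5xFAD). The least abundant gene, Gla, had at least 467 reads in every library.

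**Figure D3:**
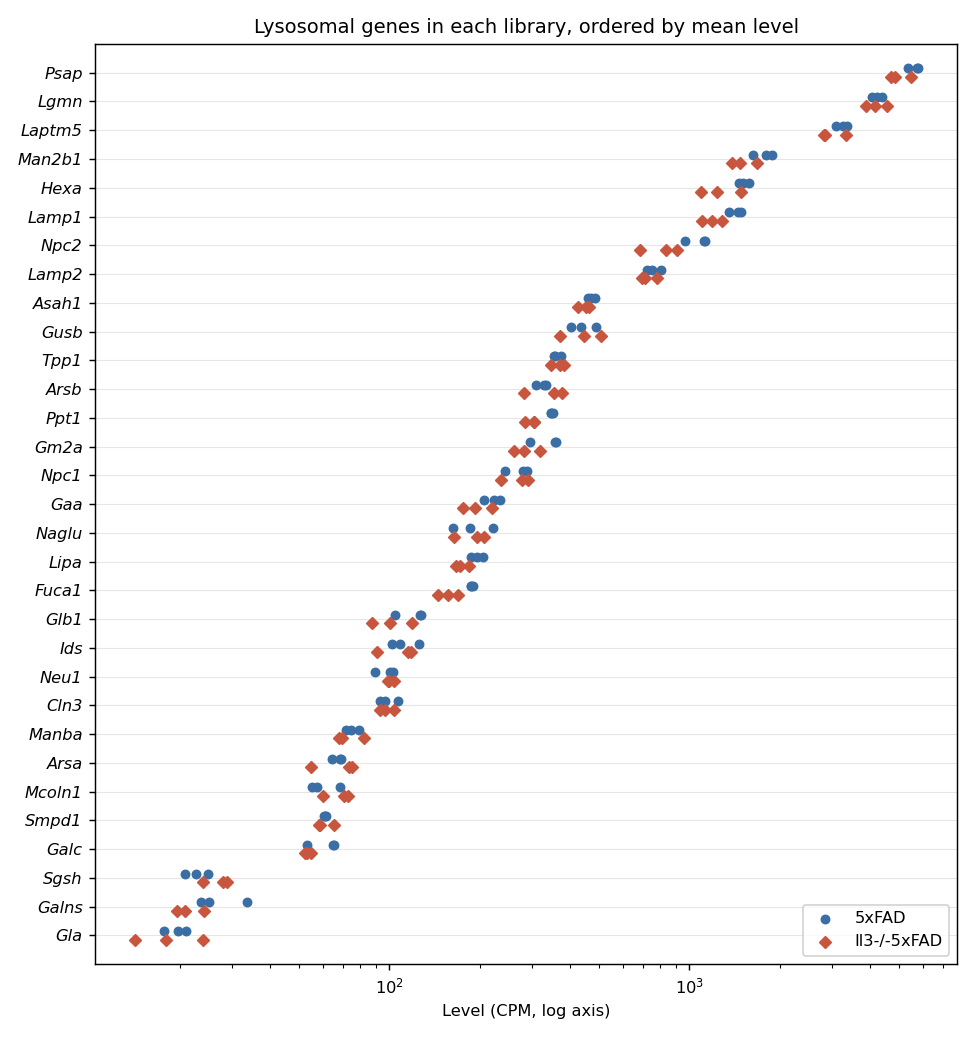
Level of each gene in each library (CPM, log axis), genes ordered by their mean over 6 libraries; circles are the 3 5xFAD and diamonds the 3 Il3-/-5xFAD libraries. Psap, Lgmn and Laptm5 are the highest, and the diamonds of Npc2, Lamp1, Ppt1, Fuca1 and Lipa all lie left of the circles.

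The lipid carriers and activators held the largest difference. Npc2 encodes the soluble sterol carrier that hands cholesterol to the membrane protein Npc1 for export from the lysosome. Its level was 968, 1124 and 1117 CPM in 5xFAD replicates 4, 5 and 6 and 685, 834 and 910.3 CPM in Il3-/-5xFAD replicates 1, 2 and 3. Every Il3-/-5xFAD library lay below every 5xFAD library, with replicate 1 lowest. The log2 difference was -0.41 ± 0.11 (SE; 95% interval -0.65 to -0.16, limma adjusted p = 0.0958), a ratio of means of 0.757. It was negative in all 18 alternatives (-0.50 to -0.29) and passed in 3 of them, over which its adjusted p ran from 0.0168 to 0.392.

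Psap encodes prosaposin, the precursor of the saposins that activate sphingolipid hydrolases. It was at 5353, 5794 and 5728 CPM in 5xFAD replicates 4 to 6 and at 4711, 4847 and 5466 CPM in Il3-/-5xFAD replicates 1 to 3. Replicate 3 of Il3-/-5xFAD lay above the lowest 5xFAD library, and the log2 difference was -0.17 ± 0.12 (limma adjusted p = 0.534). Gm2a encodes the activator that presents ganglioside to hexosaminidase. It lies on chromosome 11 with Il3, with only 8 tested genes between them in RefSeq gene order; the part of that position in its difference was not tested. Its level was 293, 360.4 and 356 CPM in the 5xFAD pools, against 261, 281 and 317 CPM in the Il3-/-5xFAD pools, groups that overlapped through 5xFAD replicate 4 and Il3-/-5xFAD replicate 3. The log2 difference was -0.23 ± 0.10 (95% interval -0.45 to -0.0095, limma adjusted p = 0.282).

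The 3 membrane transporters and channels had a median difference of -0.014. In none did the groups separate (against 11.5% of all genes tested as lower and 9.65% as higher). Npc1 was at 244, 278 and 287 CPM in 5xFAD replicates 4 to 6 and at 289, 236 and 276 CPM in Il3-/-5xFAD replicates 1 to 3, fully interleaved, with a log2 difference of -0.015 (95% interval -0.23 to 0.20). The ratio of Npc2 to Npc1 reads, a comparison chosen after the values were seen, was 3.97, 4.04 and 3.90 in 5xFAD and 2.37, 3.53 and 3.29 in Il3-/-5xFAD. The groups did not overlap, and a two-sided exact permutation test gave p = 0.1, the smallest that 3 against 3 libraries allow (0.2 adjusted over 4 such ratios). Cln3, which encodes a membrane protein lost in a childhood form of neuronal ceroid lipofuscinosis, was at 99.0 ± 7.19 and 97.9 ± 5.52 CPM (SD, n = 3), a log2 difference of -0.014. Mcoln1 encodes the lysosomal cation channel mucolipin. It was at 68.4, 57.2 and 55.4 CPM in the 5xFAD pools, against 72.8, 60.0 and 70.9 CPM in the Il3-/-5xFAD pools, overlapping groups with a log2 difference of 0.17 (95% interval -0.075 to 0.41, limma adjusted p = 0.488).

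The structural membrane proteins had a median difference of -0.11. Of the 3, 1 had separate groups, lower in Il3-/-5xFAD, as in 11.5% of all genes tested. Lamp1, a major glycoprotein of the lysosomal membrane, was at 1355, 1449 and 1492 CPM in 5xFAD replicates 4 to 6 and at 1105, 1186 and 1288 CPM in Il3-/-5xFAD replicates 1 to 3. No Il3-/-5xFAD library reached the lowest 5xFAD library, and the log2 difference was -0.27 ± 0.093 (95% interval -0.47 to -0.062, limma adjusted p = 0.177). Lamp2, which also serves chaperone-mediated autophagy, was at 724, 806 and 751 CPM and at 694, 710 and 782 CPM, overlapping groups with a log2 difference of -0.062 (95% interval -0.25 to 0.12). Reads of Lamp1 per read of Lamp2 were 1.87, 1.80 and 1.99 in 5xFAD and 1.59, 1.67 and 1.65 in Il3-/-5xFAD. This ratio, also chosen after the values were seen, did not overlap between the groups (two-sided exact permutation p = 0.1, the smallest possible, adjusted 0.2). Both this ratio and that of Npc2 to Npc1 reuse the Lamp1 and Npc2 values already given, so they are no separate support. Laptm5, a lysosomal membrane protein of blood-derived and myeloid cells, was at 3092, 3246 and 3345 CPM and at 2841, 2820 and 3335 CPM, with a log2 difference of -0.11 ± 0.11 (limma adjusted p = 0.673).

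The 8 hydrolases of sphingolipids and other lipids all had negative log2 differences, Arsa and Smpd1 close to 0, with a median of -0.13. Of the 8, 1 had groups without overlap, lower in Il3-/-5xFAD, as in 11.5% of all genes tested. Hexa encodes a hexosaminidase subunit that acts on ganglioside. Its level was 1466, 1506 and 1579 CPM in 5xFAD replicates 4 to 6 and 1091, 1241 and 1486 CPM in Il3-/-5xFAD replicates 1 to 3. Replicates 1 and 2 of Il3-/-5xFAD lay below all 5xFAD libraries and replicate 3 did not; the log2 difference was -0.26 ± 0.11 (95% interval -0.51 to -0.017, limma adjusted p = 0.270). Lipa, the acid lipase that frees cholesterol from its esters, was at 187, 206 and 196 CPM and at 172, 167 and 185 CPM. These groups narrowly did not overlap, with Il3-/-5xFAD replicate 3 just below 5xFAD replicate 4, and the difference was -0.17 (95% interval -0.34 to 0.0050, limma adjusted p = 0.318).

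The remaining lipid hydrolases overlapped between the groups. Glb1, the beta-galactosidase, was at 120 ± 13.1 CPM in the 5xFAD pools, against 102 ± 15.6 CPM in the Il3-/-5xFAD pools (log2 difference -0.23, 95% interval -0.49 to 0.028), and Galc, which degrades the galactolipids of myelin, was at 61.2 ± 6.95 and 53.4 ± 1.27 CPM (-0.19, 95% interval -0.41 to 0.038). Asah1, the acid ceramidase, was at 472 ± 12.7 and 447 ± 19.6 CPM (-0.080). Gla, the alpha-galactosidase lost in Fabry disease, was at 17.8, 21.0 and 19.7 CPM in the 5xFAD pools and spread more widely in Il3-/-5xFAD, at 18.0, 23.9 and 14.2 CPM. Its interval was the widest of the 31, from -0.47 to 0.30. Smpd1, the acid sphingomyelinase, and Arsa, which desulfates sulfatide, had differences of -0.0056 and -0.0060, with 60.9 ± 0.445 and 60.7 ± 3.87 CPM for Smpd1 and 67.3 ± 2.56 and 67.7 ± 11.2 CPM for Arsa. For Arsa the means in CPM ran the other way from the fitted log2 difference, so its sign depends on the scale.

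Enzymes that trim glycoproteins held another 2 of the 7 genes with an unadjusted p under 0.05. Fuca1, the alpha-fucosidase, was at 190, 188 and 187 CPM in 5xFAD replicates 4 to 6, a narrow range. In Il3-/-5xFAD replicates 1 to 3 it was at 145, 157 and 169 CPM, all below 5xFAD. The log2 difference was -0.26 ± 0.081 (95% interval -0.44 to -0.084, limma adjusted p = 0.131). Man2b1, the alpha-mannosidase, was at 1635, 1796 and 1891 CPM in the 5xFAD pools, against 1383, 1470 and 1680 CPM in the Il3-/-5xFAD pools. Only Il3-/-5xFAD replicate 3 reached the 5xFAD range, and the difference was -0.23 ± 0.10 (limma adjusted p = 0.292). Gaa, the acid glucosidase that degrades glycogen, was at 221 ± 13.6 and 197 ± 22.1 CPM (-0.17, 95% interval -0.38 to 0.032). Manba, the beta-mannosidase, and Neu1, the lysosomal sialidase, had differences of -0.042 (95% interval -0.26 to 0.17) and 0.045 (95% interval -0.14 to 0.23).

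The 6 hydrolases of glycosaminoglycans, the sulfated sugar chains of proteoglycans, gave a median difference of -0.0052. In none did the groups separate (against 11.5% of all genes tested as lower and 9.65% as higher). Galns, a galactosamine sulfatase, was at 23.5, 33.6 and 25.2 CPM in 5xFAD replicates 4 to 6 and at 20.9, 24.0 and 19.6 CPM in Il3-/-5xFAD replicates 1 to 3. Its log2 difference of -0.32 (95% interval -0.66 to 0.0095, limma adjusted p = 0.318) was the second most negative of the 31, and 5xFAD replicate 5 alone set the high end: without it the difference was -0.17. Sgsh, the sulfamidase that acts on heparan sulfate, was at 22.7, 24.8 and 20.9 CPM in the 5xFAD pools, against 28.9, 24.0 and 27.9 CPM in the Il3-/-5xFAD pools, overlapping in 1 library of each group, with the most positive difference (0.23, 95% interval -0.052 to 0.51, limma adjusted p = 0.409). Naglu, which also acts on heparan sulfate, was at 190.0 ± 29.5 and 189 ± 22.4 CPM (-0.0015). Gusb, the beta-glucuronidase, was at 442 ± 43.4 and 441 ± 67.6 CPM (-0.0089), Ids, the iduronate sulfatase, at 112 ± 12.4 and 108 ± 14.8 CPM (-0.054), and Arsb, which desulfates dermatan and chondroitin sulfate, at 323 and 337 CPM on average (0.053).

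Of the 3 enzymes that act on proteins, 1 had separate groups, lower in Il3-/-5xFAD, as in 11.5% of all genes tested. Ppt1, the thioesterase that removes fatty acyl chains from proteins and is lost in infantile neuronal ceroid lipofuscinosis, was at 351, 346 and 345 CPM in 5xFAD replicates 4 to 6. It was at 283, 302 and 305 CPM in Il3-/-5xFAD replicates 1 to 3, below every 5xFAD library. The log2 difference was -0.23 ± 0.073 (95% interval -0.39 to -0.068, limma adjusted p = 0.144). Tpp1, the tripeptidyl peptidase lost in the late infantile form, was at 353, 375 and 357 CPM and at 347, 369 and 381 CPM, with a difference of 0.016 (95% interval -0.15 to 0.18). Lgmn, the asparaginyl endopeptidase legumain, was at 4377, 4236 and 4052 CPM and at 4151, 3865 and 4567 CPM. Its groups interleaved, with a difference of -0.012 (95% interval -0.27 to 0.24).

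**Figure D4:**
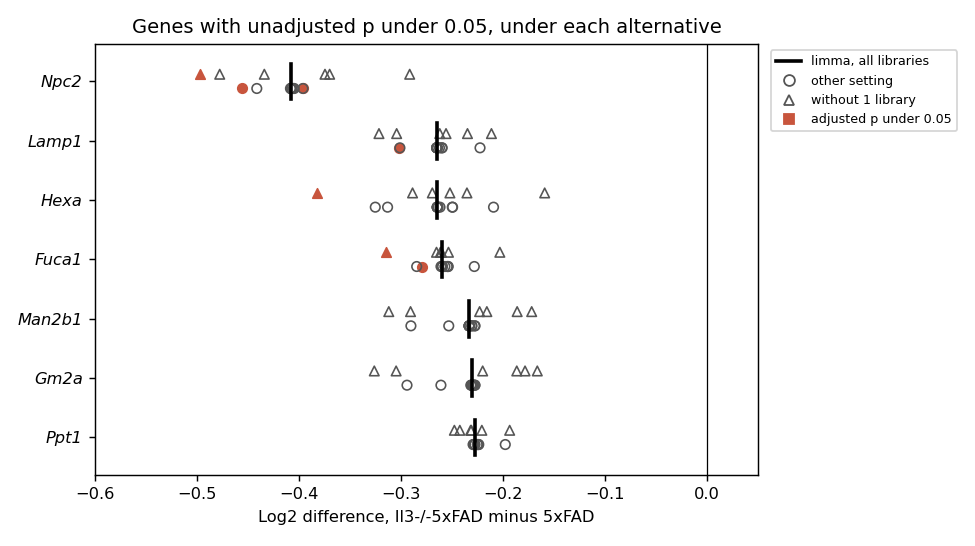
Log2 difference (Il3-/-5xFAD minus 5xFAD, horizontal axis) of the 7 genes with an unadjusted p under 0.05, from limma with all libraries (bars), under other settings (circles) and without 1 library (triangles); red marks an adjusted p under 0.05. Every value lies left of 0, and Npc2, Lamp1, Hexa and Fuca1 passed under 3, 1, 1 and 2 of the 18 alternatives. Such counts were not made over all genes tested.

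The GENCODE annotation of GRCm38 places exons of another measured gene on the opposite strand at 7 of the 31 genes, and whether the authors' counting used strand is not given in the sources used here. The overlap covers 9.31% of the exonic bases of Lamp1 (with Grtp1, 2.76 CPM), 12.8% of Hexa (with Tmem202, 1.20 CPM) and 3.51% of Ppt1 (with Cap1, 732 CPM). It covers 7.65% of Cln3 (with Apobr, 70.7 CPM), 18.8% of Arsa (C230037L18Rik), 21.6% of Sgsh (Card14) and 0.795% of Npc1 (Gm15956), where the last 3 partners were below 2 CPM. The part of these overlaps in the differences was not tested. No gene of the 31 shared more than 4.61% of its stretches of 50 bases with transcripts of other genes (Glb1).

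Other lysosomal genes, from 3 lists that leave out cathepsins and the proton pump, were counted in the same fit. Of 35 other hydrolases and activators, 1 fell and none rose (limma, adjusted p under 0.05, against 0.63% and 0.252% of all genes). At an unadjusted p under 0.05, 8 were lower (22.9%, against 9.83%) and 0 were higher (against 6.69%). Of the differences, 25 were negative (71.4%, against 50.1%), the median was -0.061, and they ran from -1.50 to 0.16. The gene that passed was Smpdl3a, a phosphodiesterase related to acid sphingomyelinase. It was at 45.5, 49.8 and 49.2 CPM in 5xFAD replicates 4 to 6 and at 29.9, 25.3 and 29.6 CPM in Il3-/-5xFAD replicates 1 to 3, with a wide gap between the groups, and its log2 difference was -0.75 ± 0.11 (limma adjusted p = 0.0131). The call was lost without 5xFAD replicate 5 (adjusted p = 0.0632) and without 5xFAD replicate 6 (adjusted p = 0.128). By edgeR its adjusted p was 0.0135, and over 18 alternatives the adjusted p ran from 4.02e-07 to 0.130. Smpd1, the acid sphingomyelinase itself, differed by -0.0056 in the same libraries.

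Among the other hydrolases and activators, Grn, which encodes progranulin, was at 1990 ± 121 CPM (5xFAD) and 1960 ± 174 CPM (Il3-/-5xFAD), each with its SD over 3 libraries, and its fitted difference was -0.024 on the log2 scale. Reads of Hexa per read of its activator Gm2a were 4.54 ± 0.419 and 4.42 ± 0.259 (two-sided exact permutation p = 0.6, adjusted 0.6).

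Of 28 tested genes for other membrane proteins and transporters none passed, and the median was -0.00020. At an unadjusted p under 0.05, 1 was higher (against 6.69% of all genes) and 0 were lower (against 9.83%). Of the differences, 14 were negative (50%, against 50.1%) and 14 positive. The most abundant members of this list were Cd68, the heavily glycosylated membrane protein of macrophage lysosomes, and Slc29a3, a nucleoside transporter. Cd68 was at 667 ± 76.7 and 582 ± 46.5 CPM (-0.19, limma unadjusted p = 0.0792, adjusted p = 0.367). Slc29a3 was at 444, 464 and 441 CPM in the 5xFAD pools, against 526, 483 and 478 CPM in the Il3-/-5xFAD pools. Its groups were separate and higher in Il3-/-5xFAD, as in 9.65% of all genes, the opposite direction to Cd68 (0.14, limma unadjusted p = 0.0960). Of 31 tested genes for enzyme sorting and lysosome biogenesis none passed, and the median was -0.0041. At an unadjusted p under 0.05, 1 was higher (against 6.69% of all genes) and 5 were lower (16.1%, against 9.83%). Of the differences, 16 were negative (51.6%, against 50.1%) and 15 positive, and they ran from -1.11 to 0.20. M6pr, a mannose phosphate receptor that delivers hydrolases, was at 317 ± 6.41 and 296 ± 20.1 CPM (-0.10), and the sorting receptor gene Sort1 at 393 ± 7.41 and 405 ± 29.6 CPM (0.041). Igf2r, which encodes another mannose phosphate receptor, is named here outside the rule for named genes. It was less abundant, at 11.3 ± 2.45 CPM in the 5xFAD pools and 4.92 ± 1.60 CPM in the Il3-/-5xFAD pools. Its groups did not overlap, lower in Il3-/-5xFAD, as in 11.5% of all genes tested (-1.08, limma adjusted p = 0.0611).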

How the data were processed

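RNA from sorted microglia pools was sequenced after polyA selection with a directional kit, per the labels' protocols. The authors deposited CPM, counts scaled to a library total of 1000000, in 1 table of 20129 genes by 6 libraries. STAR, HTSeq, edgeR and the mm9 build stand in the submitters' processing notes, where neither version nor role is attached to them. Which annotation was counted, and how, is not given in the sources used here. Groups came from the sample titles. The labels give each library as a separate pool of mice, so p-values measure the spread between 3 pools per group. All CPM values (100%) were whole multiples of 1 read, within a tolerance of 0.01 reads, so reads could be recovered. 1 read was worth 0.0266 to 0.0358 CPM.

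The main test was limma 3.58.1 in R 4.3.3 (two-sided, eBayes fitted with trend) applied to log2(CPM + 1), fitted to the 11900 genes that reached 1 CPM in 3 or more libraries, with Benjamini-Hochberg adjustment over all of them. This scale understates changes of low genes. Intervals are unadjusted. The limma step was checked on simulated reads with changed genes. Those changes were larger than any difference among the 31 genes, so the check does not bear on differences of this size. The 31 genes, the other gene lists and the tests were chosen with earlier results of these data known. All 31 genes are named. Values in every library go to genes that passed, the 5 most abundant, the 5 with the largest difference and those within 50 tested genes of Il3, and to others as the text needed. In each list of other lysosomal genes, those that passed (at most 3) and the 2 most abundant are named, and in each marker list the 2 most abundant. A gene this rule would name is not reported here. The settings varied were the pseudocount (0.25 and 5), the filter (none, or a mean of 5 CPM or more), the scaling (quantile, or median ratio), eBayes (robust, or with no trend), array weights, a lowess correction for transcript length (span 0.3), each library left out in turn, edgeR 4.0.16 with TMM and DESeq2 1.42.0. Lengths and overlaps came from GENCODE on GRCm38, while the notes name mm9. Leaving out a library kept the set of tested genes.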

Additional observations from a re-analysis of the deposited data

How the results depend on the processing

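No paired analysis was possible because the groups share no replicate number. Of the 31 lysosomal genes, 18 kept the sign of their difference in all 18 alternatives, and 4 (Npc2, Fuca1, Lamp1 and Hexa) passed in at least 1. Neither count was made over all genes tested, so neither sets these genes apart. Of all genes tested, 5.08% were called as lower with array weights, 3.45% with DESeq2 and 3.12% without Il3-/-5xFAD replicate 3. The number called among the 31 was 0 with limma, 3 with array weights (Npc2, Fuca1 and Lamp1), 1 with DESeq2, and 0 to 3 without 1 library, where the 3 came without Il3-/-5xFAD replicate 3. Their median stayed negative, from -0.12 without 5xFAD replicate 4 to -0.058 with edgeR.

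The number called over all genes was 105 with limma, 8 with no filter, 68 with a mean of at least 5 CPM, 68 with median-ratio rescaling, 10 without trend, 952 with array weights, 60 with the length correction, 60 with edgeR, 605 with DESeq2, and 15 to 605 without 1 library. Among the other lysosomal genes it was 1, and 0 with no filter, 0 without trend, 9 with array weights, 7 with DESeq2 and 0 to 6 without 1 library. Smpdl3a lost its call with no filter and without trend. Its difference there was -0.75, as with limma; the cause of the other changes was not tested.

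Signs that changed belonged to genes near 0: Naglu (0.0011 with median-ratio rescaling), Cln3, Gla and Arsb (0.014, 0.033 and -0.036 with array weights), Smpd1, Gusb, Naglu and Lgmn (0.030, 0.018, 0.029 and 0.044 with the length correction), and Arsa and Gusb (0.0082 and 0.0031 with edgeR, 0.0076 and 0.0028 with DESeq2). Without 1 library the differences ran from -0.086 to 0.071 for Npc1, -0.058 to 0.043 for Cln3, -0.27 to 0.088 for Gla, -0.086 to 0.14 for Arsa, -0.057 to 0.024 for Smpd1, -0.014 to 0.083 for Neu1, -0.13 to 0.0099 for Manba, -0.11 to 0.11 for Gusb, -0.10 to 0.11 for Naglu, -0.12 to 0.064 for Ids, -0.032 to 0.18 for Arsb, -0.015 to 0.054 for Tpp1 and -0.075 to 0.045 for Lgmn. Each of the 31 genes had at least 467 reads in every library, and each group had 3 pools; how far depth or the number of pools set the calls was not tested.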
